A study of Mus musculus with 2 samples.

Results

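A set of 30 genes of photoreceptors were read in RNA from J-RGCs, one of the types of retinal ganglion cells, to show how far genes of the light-sensing cells were present in a sort of output neurons. The 30 members were listed by gene symbol, not by their values, and all 30 were found among the 24015 gene symbols of the deposited counts. The cells came from mouse retina at postnatal day 6. A transgene specific to J-RGCs labelled them with green fluorescent protein, and magnetic beads followed by flow cytometry gathered them. No source used here gives the driver of that transgene or the strain. There was 1 group with 2 libraries, A and B, each pooled from 5 to 6 animals of a separate litter, so no contrast of conditions exists. Values are counts scaled to a gene total of 1000000 (CPM), A before B, or mean ± SD over n = 2 libraries. Gene counts totalled 7916204 in A and 13744313 in B. A gene with 0 counts was given an upper limit of 3 counts, which is 0.379 CPM in A and 0.218 CPM in B. This limit covers counting error only.

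Rods and cones turn light into a fall in cyclic GMP. An opsin activates the G protein transducin, transducin activates phosphodiesterase 6, and the loss of cyclic GMP closes cation channels in the outer segment, a stack of membrane discs built on a cilium. Arrestins end the opsin's activity, and calcium sensors with guanylate cyclase restore cyclic GMP. The homeobox factors OTX2 and CRX, the bZIP factor NRL and the nuclear receptor NR2E3 direct photoreceptor genes during development, and ganglion cells carry the resulting signal from the retina to the brain. The rod opsin gene was not on the list and is not reported here.

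Of the 30 members, 11 reached 1 CPM in both libraries, a share of 36.7% against 46.8% of all 24015 gene symbols. These were Cngb3, Impg2, Otx2, Rp1, Rpgrip1, Pde6b, Nr2e3, Rom1, Crx, Pde6g and Nrl. In library B alone 18 members reached 1 CPM, against 11 in library A alone, beside 54.7% and 48.7% of all symbols. A level of at least 10 CPM in both libraries was met by 4 members, Cngb3, Impg2, Otx2 and Rp1, and by 27.8% of all symbols. No count in either library was found for 3 members, Pde6h, Opn1mw and Guca1a, and for 29.3% of all symbols. The median member stood at 0.379 and 1.75 CPM, and the median gene symbol at 0.758 and 1.89 CPM. On the scale of log2(CPM + 0.5) the median member was 0.49 ± 0.957 and the median symbol 0.79 ± 0.655 (SD, n = 2). Both medians rose from A to B, so these SDs do not measure the error of the gap. Within each library the median member was the lower, at -0.186 against 0.331 in A and 1.17 against 1.26 in B. The gap was not tested.

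The members were far from even. Their levels summed to 164 and 149.9 CPM. Standing at least 5 times above the median member in both libraries were 6 genes, Cngb3, Impg2, Otx2, Rp1, Rpgrip1 and Rom1, which held 80.9% of the members' summed CPM in A and 71.1% in B. CPM grows with transcript length. Divided by kilobases of exon, 4 of the 6 genes still met the rule, Cngb3, Rom1, Otx2 and Impg2. Rp1 and Rpgrip1, with 12311 and 12152 bases of annotated exon, did not. With the length of the longest transcript in place of the summed exons, Rp1 met it again. Across the 30 members, Spearman's rho between exon length and mean CPM was 0.397, given as a description of genes that share the 2 libraries.

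**Figure D1:**
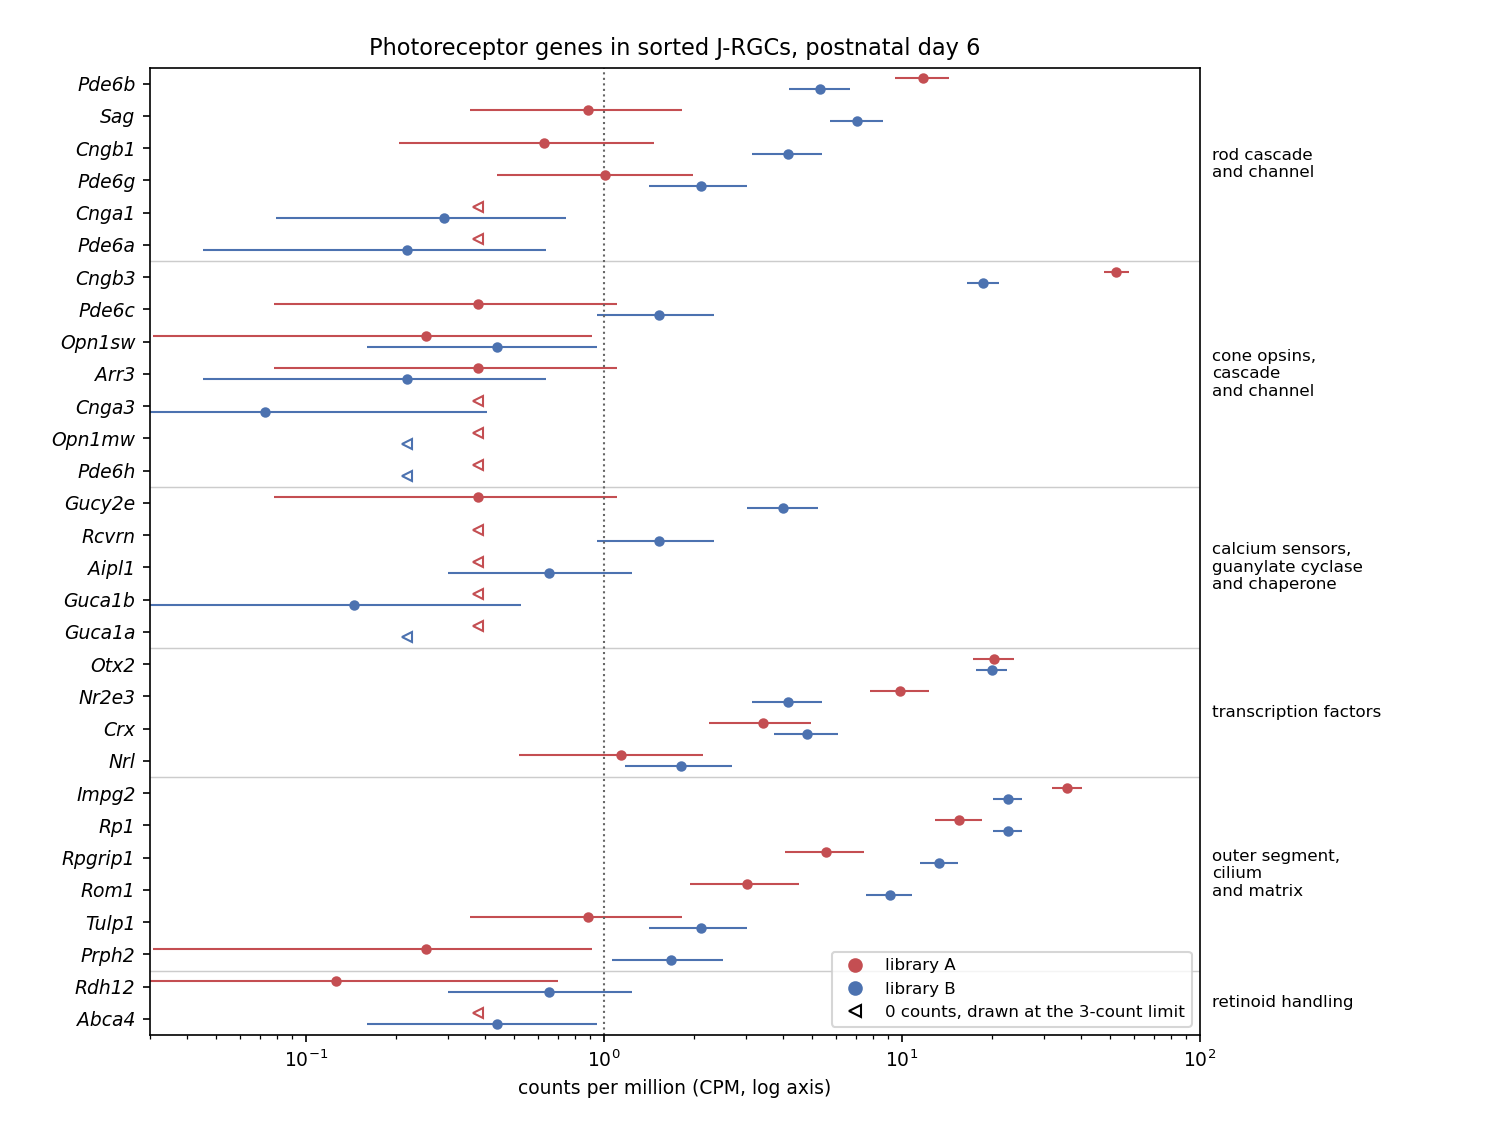
Level of each member in library A and library B, in CPM on a log axis, grouped by role. Bars are exact 95% Poisson intervals of the counts, open triangles mark 0 counts at the limit of 3 counts, and the dotted line is 1 CPM. Cngb3, Impg2, Otx2 and Rp1 lie above 10 CPM in both libraries, while no calcium sensor, cyclase or retinoid gene reaches 1 CPM in both.

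The transcription factors were the one role whose members were all at 1 CPM or more in both libraries, 4 of 4. Otx2, which acts in photoreceptors, bipolar cells and pigment epithelium, stood at 20.3 and 20.01 CPM, with exact 95% Poisson intervals of 17.3 to 23.7 and 17.7 to 22.5. These intervals overlap almost wholly, and Otx2 was the member that differed least between the libraries among those with 10 counts or more. Crx, the homeobox factor of photoreceptors and bipolar cells, stood at 3.41 and 4.80 CPM. Nr2e3, the orphan receptor that holds cone genes down in rods, stood at 9.85 and 4.15 CPM. Nrl, which sets rod fate, was lowest at 1.14 and 1.82 CPM, from 9 and 25 reads.

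Per kilobase of exon the order was Otx2 (4.78 ± 0.0552 CPM per kilobase), Nr2e3 (2.08 ± 1.20), Crx (1.30 ± 0.311) and Nrl (0.260 ± 0.0848). Otx2 was 4.46-fold of Crx in A (95% interval 2.96 to 6.98), and in B the ratio was 3.12 (2.38 to 4.15), on that scale. Nr2e3 was 14.6-fold of Nrl in A (7.33 to 33.2), against 3.85 in B (2.37 to 6.43). Nr2e3 and Crx were not separated beyond their spread, since Nr2e3 was the higher in A, at 2.92 against 1.08 CPM per kilobase, and the lower in B, at 1.23 against 1.52.

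The letters TAATCC, the core that OTX and CRX proteins bind, were searched on both strands, where the reverse reads GGATTA, in windows from 250 bases before to 50 bases after annotated start sites. The windows came from RefSeq on GRCm38.p6, and 23 members had one or more, 27 windows in all. TAATCC was present in 10 of the 27 windows, 37.0%, against 7.06% of 32851 windows of all genes. Those windows belonged to Abca4, Aipl1, Cnga1, Cngb1, Crx, Guca1a, Gucy2e, Otx2, Rpgrip1 and Sag. Of these 10 genes 3 reached 1 CPM in both libraries, and of the 13 matched genes without the letters 5 did. TGCTGAC, a site of the MAF type to which NRL belongs, was present in 2 windows, those of Opn1sw and Pde6b, or 7.41% against 4.67% of all windows, and no window held both motifs. A match is a description of the letters, and binding was not measured here.

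The windows of 4 members are shown, from 2 members read in both libraries with the letters (Crx, Rpgrip1), 1 with the letters that was at most 0.655 CPM (Aipl1), and 1 of the highest members, without them (Impg2). They are written 5′ to 3′ on the gene's strand, in GRCm38.p6, with TAATCC or its reverse in capitals. Crx lies at chr7:15879906-15880205, minus strand, Rpgrip1 at chr14:52110653-52110952, plus strand, Aipl1 at chr11:72037460-72037759, minus strand, and Impg2 at chr16:56204063-56204362, plus strand.
Crx: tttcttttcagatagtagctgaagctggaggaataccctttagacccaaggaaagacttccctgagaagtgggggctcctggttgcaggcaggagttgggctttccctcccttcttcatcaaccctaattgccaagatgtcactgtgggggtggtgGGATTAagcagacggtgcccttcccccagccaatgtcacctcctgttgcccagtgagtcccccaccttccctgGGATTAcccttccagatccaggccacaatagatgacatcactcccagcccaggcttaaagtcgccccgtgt
Rpgrip1: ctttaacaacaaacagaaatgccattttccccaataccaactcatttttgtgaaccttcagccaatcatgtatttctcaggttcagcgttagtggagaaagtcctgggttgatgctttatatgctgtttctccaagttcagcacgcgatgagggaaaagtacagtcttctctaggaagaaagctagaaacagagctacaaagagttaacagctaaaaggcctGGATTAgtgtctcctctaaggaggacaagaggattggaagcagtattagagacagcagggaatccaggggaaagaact
Aipl1: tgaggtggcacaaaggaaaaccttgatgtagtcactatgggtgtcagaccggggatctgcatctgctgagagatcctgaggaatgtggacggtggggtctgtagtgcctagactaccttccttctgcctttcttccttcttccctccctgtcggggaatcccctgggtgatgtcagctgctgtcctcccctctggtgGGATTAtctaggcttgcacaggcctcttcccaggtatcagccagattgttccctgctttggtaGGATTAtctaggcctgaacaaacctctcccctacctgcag
Impg2: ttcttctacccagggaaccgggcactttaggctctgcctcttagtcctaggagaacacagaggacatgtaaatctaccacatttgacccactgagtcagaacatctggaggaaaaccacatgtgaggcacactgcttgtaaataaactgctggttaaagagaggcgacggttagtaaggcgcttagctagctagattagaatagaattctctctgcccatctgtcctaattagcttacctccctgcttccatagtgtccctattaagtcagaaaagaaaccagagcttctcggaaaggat
The capitals begin 94 and 21 bases before the annotated start of Crx and 28 bases before that of Rpgrip1. In Aipl1 the first match begins 53 bases before the start and the second at base 11 of the transcript. The Crx and Aipl1 windows each hold a pair of matches. Crx was read at 3.41 and 4.80 CPM and Aipl1 at 0 and 0.655 CPM. The median of mean CPM was 2.29 over the 10 genes with TAATCC and 0.963 over the 13 matched genes without it. A link between the letters and the level was not tested.

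Of the genes for the outer segment, its cilium and the matrix around it, 4 of 6 reached 1 CPM in both libraries. Impg2, a proteoglycan of the interphotoreceptor matrix, stood at 35.9 and 22.6 CPM, and Rp1, a microtubule protein of the outer segment axoneme, at 15.5 and 22.7 CPM. Rpgrip1, a scaffold of the connecting cilium, stood at 5.56 and 13.3 CPM, and Rom1, a tetraspanin of the disc rim, at 3.03 and 9.09 CPM. Tulp1, which acts in protein transport to the outer segment, was at 0.884 and 2.11 CPM. Prph2, the tetraspanin that pairs with ROM1 at the disc rim, was at 0.253 and 1.67 CPM, from 2 and 23 reads. The value of Impg2 was the higher in A, and those of the other 5 in B.

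Of the rod cascade and channel genes, 2 of 6 reached 1 CPM in both libraries. Pde6b, a catalytic subunit of rod phosphodiesterase, stood at 11.7 and 5.31 CPM, and Pde6g, its inhibitory subunit, at 1.01 and 2.11 CPM. Rod arrestin, Sag, was at 0.884 and 7.06 CPM. Cngb1, the beta subunit of the rod channel, was at 0.632 and 4.15 CPM. Their partners Pde6a, the other catalytic subunit, and Cnga1, the channel's alpha subunit, had 0 counts in A and stood at 0.218 and 0.291 CPM in B, from 3 and 4 reads.

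Of the 7 cone genes only Cngb3, the beta subunit of the cone channel, reached 1 CPM in both libraries. It was the highest of all members, at 52.4 CPM in A (95% interval 47.5 to 57.7) and 18.8 CPM in B (16.6 to 21.2). The intervals do not overlap. In A, 87.1% of all gene symbols lay below it, and in B 73.9%. Pde6c, the catalytic subunit of cone phosphodiesterase, was at 0.379 and 1.53 CPM, the short-wave opsin Opn1sw at 0.253 and 0.437 CPM, and cone arrestin, Arr3, at 0.379 and 0.218 CPM. Cnga3, the alpha subunit that joins CNGB3 in the cone channel, had 0 counts in A and 1 in B (0.0728 CPM). Opn1mw, the medium-wave opsin, and Pde6h, the inhibitory subunit, had 0 counts in both, which allows up to 0.379 and 0.218 CPM.

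None of the 5 genes for calcium sensors, guanylate cyclase and the phosphodiesterase chaperone reached 1 CPM in both libraries. Gucy2e, a photoreceptor guanylate cyclase, was at 0.379 and 4.002 CPM, and recoverin, Rcvrn, at 0 and 1.53 CPM. Aipl1, the chaperone, was at 0 and 0.655 CPM. Of the cyclase activators Guca1b had 0 and 2 reads and Guca1a none. The 2 retinoid genes were also low, with Rdh12, a retinol dehydrogenase, at 0.126 and 0.655 CPM and Abca4, a retinoid transporter of the disc rim, at 0 and 0.437 CPM. In A, 10 of the 30 members had no read, and in B 3.

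Genes whose products work as partners were read at unequal levels. They were compared per kilobase of exon, with an exact 95% interval of the ratio of counts in each library that covers counting error only. The 10 pairs were put together after the values were known, so the ratios are a description. Where the second gene had 0 counts, only the lower end of that interval is given. Cngb3 stood at 11.1 CPM per kilobase in A, with an interval over Cnga3 from 94.1-fold up, and in B at 3.99, 217-fold over the single read of Cnga3, with an interval of 38.6 to 8598. Pde6b over Pde6a had an interval from 23.1-fold up in A, and the ratio in B was 22.7 (7.47 to 113). The ratio of Pde6b to Pde6g was 5.36 in A (2.61 to 12.8), but 1.16 in B with an interval of 0.745 to 1.85, which holds 1. For Rom1 over Prph2 the ratios were 23.7 (5.90 to 207) and 10.8 (6.86 to 17.6).

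Impg2 exceeded Impg1, the other interphotoreceptor matrix proteoglycan, with ratios of 15.9 in A (7.61 to 39.9) and 3.93 in B (2.71 to 5.88). Rp1 exceeded its paralog Rp1l1, with ratios of 2.70 (1.78 to 4.23) and 5.19 (3.68 to 7.51). Cngb1 was 9.64-fold of Cnga1 in B (3.56 to 36.6), and in A, with 5 and 0 reads, the interval began at 0.620 and so holds 1. Pde6c over Pde6h had an interval from 13.8-fold up in B. In A it began at 1.09, and both genes lay at or under the limit. These lower ends rest on exon lengths of 7846 bases for Pde6h and 2970 for Pde6c. The ratios depend on the gene models. With the longest transcript as the length, Rp1 over Rp1l1 became 4.27 in A and 8.21 in B, Otx2 over Crx 6.72 and 4.69, and Cngb1 over Cnga1 6.31 in B. Cngb3 over Cnga3 became 195 in B.

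**Figure D2:**
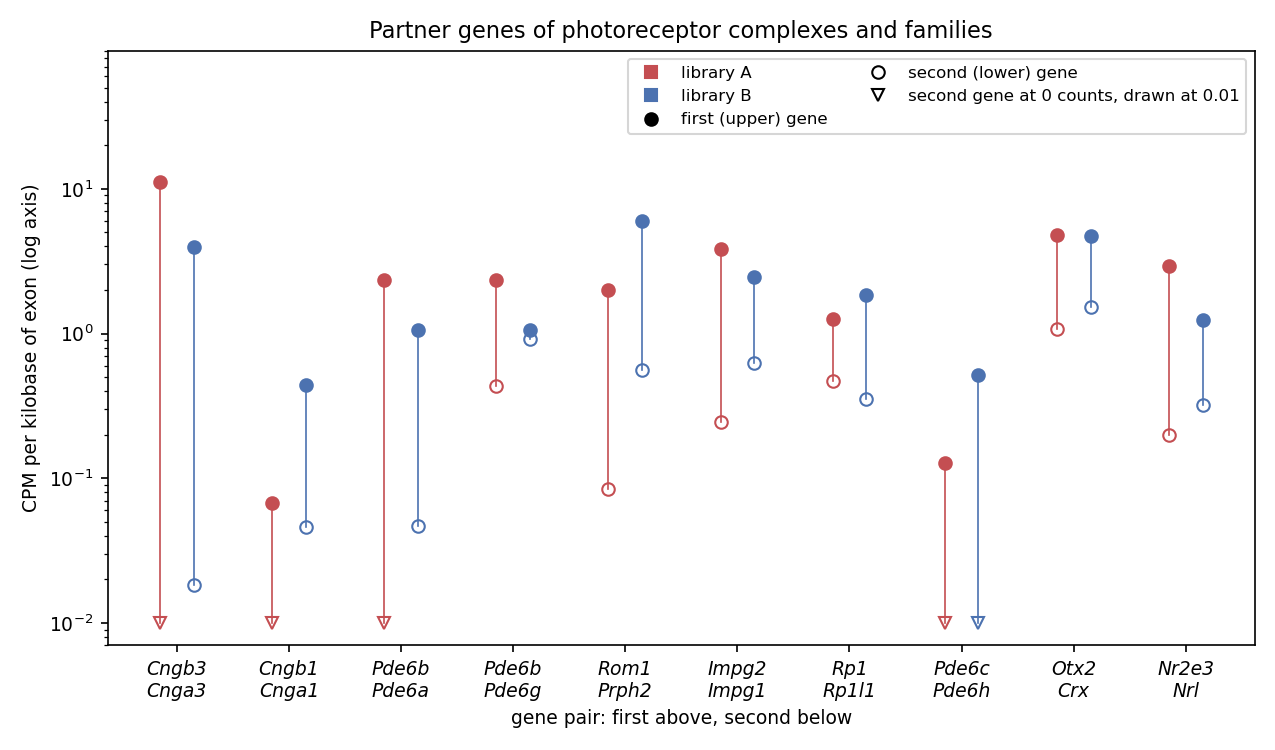
Pairs of partner genes, in CPM per kilobase of exon on a log axis; filled points are the first gene of each pair, open circles the second, red library A and blue library B. Open triangles mark a second gene with 0 counts, drawn at 0.01. Cngb3 stands at 11.1 and 3.99 while Cnga3 has at most 1 read, and Pde6b and Pde6g lie close together in B.

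The libraries differed for many members. Counts of each gene were set against the gene totals in an exact binomial test, two-sided, with Benjamini-Hochberg adjustment over the 14107 genes with at least 10 counts in all, and a gene was called at an adjusted p under 0.05 and 2-fold or more. The test compares these 2 libraries, whose separate amplification adds spread beyond counting. Of the 30 members 19 had enough counts. Called higher in B were 8 of the 19, 42.1% against 33.6% of all genes tested, and called higher in A were 3, 15.8% against 10.9%. Within 2-fold lay 5, Otx2, Impg2, Rp1, Crx and Nrl, or 26.3% against 53.1% of all genes tested. TMM scaling moved every log2 ratio by -0.45 and DESeq2 size factors by -0.48. Either way 6 members were then higher in B and 4 in A, beside 22.4% and 16.4% of all genes with TMM.

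Among called members with a read in A, the largest difference towards B was in Gucy2e, 10.6-fold from 3 and 55 reads (exact binomial test, adjusted p = 1.07e-07). Sag followed at 7.98-fold, from 7 and 97 reads (exact binomial test, adjusted p = 9.06e-12). Prph2 and Cngb1 were 6.62-fold and 6.57-fold higher in B, Pde6c 4.03-fold, Rom1 3.0-fold and Rpgrip1 2.40-fold. Rcvrn, with no read in A and 21 in B, stood in B at 4.03-fold of the 3-count limit of A. The calls of Pde6c and Rpgrip1 ended with TMM or DESeq2 scaling, at log2 ratios of 1.56 and 0.81 with TMM. The cascade, channel and disc genes called higher in B were all under 10 CPM there, and Rpgrip1 was at 13.3 CPM.

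Towards A, Cngb3 was 2.79-fold higher (exact binomial test, adjusted p = 1.42e-38), Nr2e3 2.38-fold and Pde6b 2.21-fold. Impg2 was 1.59-fold higher in A, short of the 2-fold rule, and was called with TMM at a log2 ratio of -1.11. Members of one role thus went both ways, as with Pde6b higher in A and Sag and Cngb1 higher in B among rod genes. The remaining 11 members had under 10 counts in all and were not tested.

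**Figure D3:**
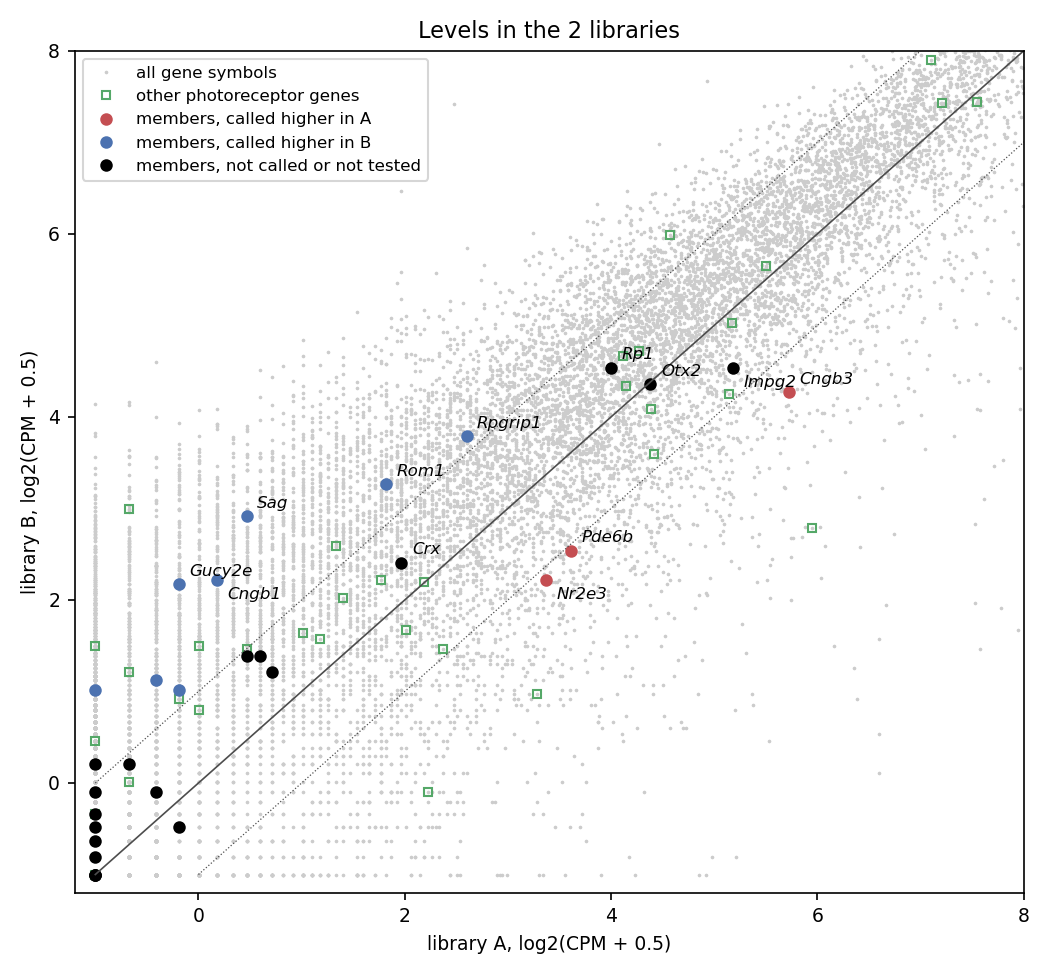
Levels in library A (x axis) and library B (y axis) as log2(CPM + 0.5), shown up to 8 on each axis; grey points are all gene symbols, green squares the other photoreceptor genes, and filled circles the 30 members. The solid line is equality and the dotted lines 2-fold on this scale; Sag, Gucy2e and Cngb1 lie on the side of B, and Cngb3, Pde6b and Nr2e3 on the side of A.

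Other photoreceptor genes were taken from a separate list of 38, of which 37 were listed in the files. Of these, 25 reached 1 CPM in both libraries, 67.6% against 46.8% of all symbols, and 15 reached 10 CPM. The list's median was 4.17 and 4.15 CPM. Several of those are used by many neurons. The nuclear receptor Rorb stood at 1751 and 1180 CPM, the G protein subunit Gnb1 at 1131 and 865 CPM, and the exchanger Slc24a2 at 314 and 524 CPM. Rgs9, which speeds the shut-off of transducin, stood at 137 and 237 CPM, and its partner Gnb5 at 18.8 and 25.9 CPM.

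How far each gene of this list is confined to photoreceptors was not tested. Neurod1, a factor of photoreceptor and amacrine development, stood at 44.7 and 49.5 CPM. Cdhr1, a cadherin at the base of the outer segment, stood at 23.2 and 63.2 CPM. Rbp3, the retinoid carrier of the matrix, stood at 34.7 and 18.5 CPM, Prom1, a disc protein, at 20.8 and 11.6 CPM, and the cone receptors Rxrg and Thrb at 17.2 and 19.7 and at 20.5 and 16.4 CPM. The prenyl-binding protein Pde6d and the factor Mef2d stood at 33.9 ± 2.45 and 20.8 ± 5.71 CPM. The transducin alpha subunits were near 0, with Gnat1 (rods) at 0 and 0.291 CPM and Gnat2 (cones) at 0 and 0.873 CPM. The beta and gamma subunits were not all so low. Gnb1 stood at 1131 and 865 CPM, Gnb3 at 0.505 and 1.24, Gngt1 at 4.17 and 0.437, and Gngt2 at 1.52 and 2.62 CPM. Rdh8, the outer segment retinol dehydrogenase, had no read. Between the libraries 9 of 34 tested genes of this list were called higher in B, among them Prdm1 at 0.126 and 7.49 CPM, and 4 in A, among them Unc119 at 61.3 and 6.40 CPM. These are shares of 26.5% and 11.8%, beside 33.6% and 10.9% of all genes tested. With TMM the counts were 6 in B and 7 in A, and with DESeq2 size factors 5 and 7.

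Markers of ganglion cells and of other cells were read beside the members. All 8 ganglion cell markers exceeded 100 CPM in both libraries, from 105 to 3542 CPM in A and from 188 to 6087 CPM in B, and summed to 8308 and 11338 CPM. These are genes of ganglion cells as a class. Jam2, the gene by which J-RGCs are known, stood at 2344 and 1203 CPM. No member reached the lowest of the 8 markers in either library. In bulk RNA, fewer cells of a type and less RNA per cell cannot be told apart, and no photoreceptor sample was measured for scale.

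Otx2 and Crx are also genes of bipolar cells, and Otx2 of pigment epithelium. Of the 10 bipolar markers 3 reached 1 CPM in both libraries and the list summed to 234 and 120 CPM, of which Prkca, also found in other neurons, made 131 and 95.5 CPM and Grm6 96.4 and 0.582 CPM. Pcp2 and Cabp5 had 0 counts in A, and Bhlhe23 had none in either. Of the 7 pigment epithelium markers 2 reached 1 CPM in both, Mitf at 4.67 and 4.95 CPM and Tyr at 1.52 and 2.62 CPM. Best1 stood at 0.884 and 2.33, Rlbp1 at 0 and 1.60 and Pmel at 0 and 0.146 CPM. Tyrp1 and Ttr had no read, and the list summed to 7.07 and 11.6 CPM. Of the 6 progenitor and cycling cell markers 5 reached 1 CPM in both, with summed levels of 174 and 83.2 CPM. Most of that sum was Mki67, at 116 and 41.8 CPM, while Ccna2 stood at 11.9 and 14.6 CPM and the progenitor gene Fgf15 at 0 and 0.146 CPM. Of the 7 amacrine markers 4 reached 1 CPM in both and the list summed to 126 and 108 CPM. Gad2 stood at 58.4 and 56.8, Tfap2b at 42.2 and 30.9 and Tfap2a at 23.2 and 10.04 CPM. Gad1 was at 1.01 and 4.80, Slc6a9 at 0.758 and 4.44, and Chat at 0 and 0.0728 CPM. The part of any of these cells in the members' reads was not tested.

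**Figure D4:**
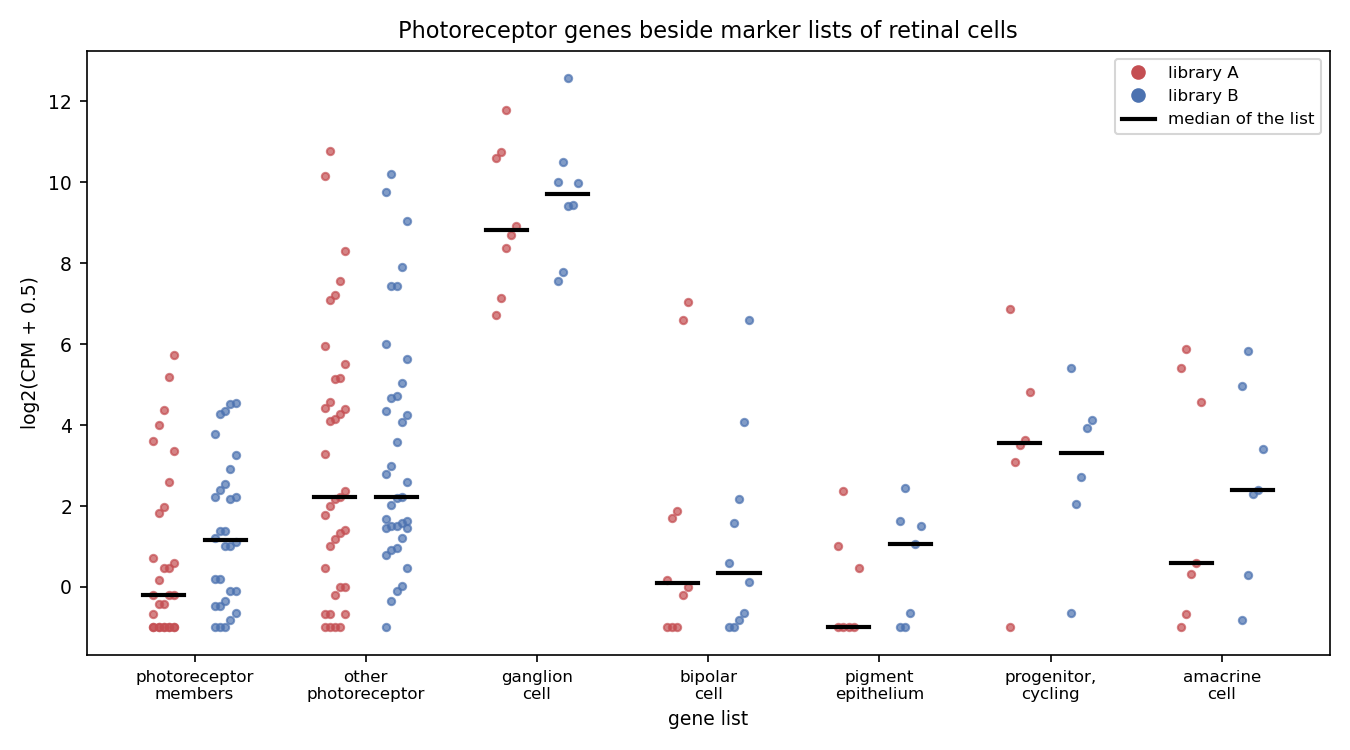
Each point is a gene as log2(CPM + 0.5), red in library A and blue in library B, for the 30 members, the other photoreceptor genes and 5 marker lists; black bars are list medians. All ganglion cell markers lie above all members, and the members' median is 0.379 CPM in A and 1.75 CPM in B.

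Gene neighbourhood was checked because the sources do not say whether strand was used in counting, so reads from overlapping genes on opposite strands cannot be told apart. In GENCODE M21, on another build than the counts, 7 of the 30 members overlap another listed gene, and 3 of the 11 members read in both libraries do. These were Otx2 with Otx2os1 (0 and 0.146 CPM), Nr2e3 with Gm7616 (0 and 0 CPM), and Rpgrip1 with Supt16 (71.9 and 103 CPM). Rcvrn overlaps Glp2r, at 17.6 and 0.0728 CPM. The nearest listed gene lay within 1000 bases of 3 members read in both libraries. Rom1 lies 154 bases from B3gat3, at 1.52 and 11.6 CPM, which is also higher in B. Pde6b and Pde6g lie near Atp5k (8.97 and 9.39 CPM) and Tspan10 (0.126 and 0.364 CPM). The 2 highest members have no listed gene so near, with Cpne3 8630 bases from Cngb3, at 19.6 and 14.8 CPM, and Senp7 14300 bases from Impg2, at 84.1 and 123 CPM. The part of neighbouring transcripts in the members' reads was not tested.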

How the data were processed

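RNA of sorted J-RGCs was sequenced in 2 libraries, A and B, which differ by litter. The authors deposited read counts per gene symbol, whole numbers that were not normalized. Trimmomatic 0.32, TopHat2 2.0.10, HTSeq 0.6.1 and mm9 stand in the submitters' processing notes, and no source used here gives the settings, annotation or strand use. The 5 summary lines of each file were left out. Gene counts were 26.8% of the reads in the file for A and 30.9% for B. CPM was computed over gene totals. Exon lengths came from GENCODE M21, matched by symbol for 22709 symbols and all 30 members. A quasi-likelihood test with edgeR needs a contrast of groups, and there was 1 group. The libraries were compared by an exact binomial test with Benjamini-Hochberg adjustment across all genes, and intervals are exact Poisson or binomial. The test was tried on simulated counts with Poisson spread only. These lack the added spread of separate amplification, so they cannot show how the test fares on these libraries. Scaling alternatives used edgeR 4.0.16 and DESeq2 1.42.0 in R 4.3.3, and the rest Python 3.11.15, numpy 2.4.6, pandas 2.3.3 and scipy 1.17.1. Amplified reads without molecular identifiers are not independent molecules. The libraries' p-values measure counting error between these 2 libraries only. All members were named by role, and others at 10 CPM in both libraries or 0 in both. Pairs, promoters shown and lower pathway genes were chosen after values were seen. Single values of some genes on the lists are not reported here. The members and lists were chosen with earlier results of these data known.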

Additional observations from a re-analysis of the deposited data

How the results depend on the processing

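Leaving out 1 library gave 11 members at 1 CPM or more in A alone and 18 in B alone, against 11 in both, so the count rests on library A. TMM and DESeq2 scaling gave 13, thresholds of 0.5 and 2 CPM gave 14 and 9, at least 10 counts in both gave 9, and 1 CPM per kilobase gave 8. The members' median log2 level of 0.49 was 1.46 over members with at least 10 counts in all, which leaves out the lowest members by construction. It lay between -0.415 and 1.17 in all other settings. The other photoreceptor genes at 1 CPM or more in both libraries numbered from 17 to 32. Higher calls in A were 3 or 4 and in B from 6 to 9 in all settings. Of the single members' ratios, 64 comparisons kept their call, 4 lost it (Pde6c and Rpgrip1 with TMM and with DESeq2 scaling), 4 gained one (Impg2, and Rp1 without the 2-fold rule), and none of the called ratios changed sign. The length setting by longest transcript was chosen after seeing the data. No paired analysis was possible because there is 1 group. Depth limits the members with under 10 counts, whose order was not detectable.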
